A study of Mus musculus with 12 samples.

Results

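Deletion of Top1 combined with topotecan was compared with the vehicle-treated control in RNA-seq libraries of mouse cortical neuron cultures. The 6 libraries of this comparison were those whose labels give the Top1 cKO-Topot group (3 libraries) and the WT-Veh group (3 libraries), out of 12 libraries in the series. All cultures were prepared at mid-gestation, up to embryonic day 15.5. The study's methods name adult C57BL6/J wild-type females for the cultures. For RNA-seq they name Top1 fl/fl neurons, so both genotypes carried the conditional alleles. WT cells were infected at day 3 in vitro (DIV 3) with a lentivirus coding for tdTomato, and Top1 cKO cells with one coding for tdTomato-P2A-CRE, both driven by the neuron-specific CaMKIIα promoter. From DIV 15, WT-Veh cells were kept for 3 days in vehicle (0.003% DMSO) and Top1 cKO-Topot cells in 300 nM topotecan. The control was thus vehicle-treated and virus-infected, not untreated. The deletion was limited to cells that the virus reached and in which the promoter was active. WT-Topot cells (topotecan alone) and Top1 cKO-Veh cells (deletion alone), with 3 libraries each, were used to tell the combined change from either single one.

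TOP1 is the enzyme that relaxes supercoiled DNA by cutting and rejoining a single strand, which relieves the torsion that RNA polymerase builds up along a gene. Topotecan, a camptothecin derivative used against cancer, traps TOP1 on DNA as a cleavage complex, so that deletion removes the enzyme whereas the drug turns the enzyme into a lesion. Very long genes, many of which code for synaptic adhesion molecules, channels and receptors, are known to be sensitive to TOP1 inhibition in neurons.

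CRE removes the floxed exon 3 of Top1, which is shown here because it is the only sequence that the deletion takes out of the messenger RNA. In the NCBIM37 (mm9) annotation it lies on the plus strand at chr2:160495836-160495938, is exon 3 of 21, and has 103 bases, all of them coding. As 103 leaves a remainder of 1 when divided by 3, its loss shifts the reading frame of the 2301-base coding sequence.
Top1 exon 3: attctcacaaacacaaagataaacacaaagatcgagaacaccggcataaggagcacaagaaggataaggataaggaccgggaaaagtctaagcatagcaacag

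The libraries held 1730164 to 3425571 counts in the WT-Veh and 2250132 to 3099311 in the Top1 cKO-Topot group, so that 3 counts correspond to about 1 CPM (counts scaled to a common library size). Values below are CPM after TMM scaling, given in the order of replicates 1, 2 and 3, and are not corrected for gene length. Fold changes are log2 (Top1 cKO-Topot over WT-Veh) with standard errors, FDR is the Benjamini-Hochberg adjusted p of edgeR's quasi-likelihood test over all 23893 genes, and genes with FDR under 0.01 are called lower or higher. Same-numbered libraries deviated together, so blocked FDRs are printed for many of the genes whose call was altered by blocking on the replicate number. For lists the numbers called with the block are mostly given, but the members that the block added are not all named. The study counts the 3 replicates of a group as cultures but does not say whether these came from separate preparations, so the tests measure the spread between these cultures, which may be partly technical. Where libraries of both groups are said not to overlap, this held for all 402 called genes and for 26.5% of the 13712 genes whose mean reached 1 CPM. In such mixed cultures, fewer cells of a type and less RNA per cell cannot be told apart.

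The targeted gene was checked first. Top1 stood at 117, 163 and 124 CPM in WT-Veh and at 29.1, 37.5 and 28.4 CPM in Top1 cKO-Topot libraries, with no overlap (log2 fold change −2.06 ± 0.22, FDR = 6.43e-06). The count covers all exons, so this fall concerns the whole transcript and not the deleted exon alone. WT-Topot libraries had 129, 139.7 and 130.2 and Top1 cKO-Veh libraries 30.1, 44 and 27.1 CPM, so both CRE groups were low and both tdTomato groups high. Top1 was the only one of 23 topoisomerase and DNA repair genes in the table that was called lower, and 0 were called higher. Ube3a, the imprinted ubiquitin ligase gene whose silent paternal copy topotecan can activate, had 188, 211 and 182 CPM in WT-Veh and 206, 246 and 194 CPM in Top1 cKO-Topot libraries, and the groups overlapped (log2 fold change 0.17 ± 0.18, FDR = 0.843). The change lay between −0.19 and 0.54 on the log2 scale within 2 standard errors. WT-Topot libraries had 203, 365 and 315 CPM of Ube3a. None of the 12 measured genes of the surrounding imprinted region was called in either direction (edgeR quasi-likelihood test, 1 of them, Ndn, at FDR = 0.0162). With the block 2 were lower, Nipa1 (FDR = 0.000179) and Herc2 (FDR = 0.000115), and 2 were higher, Ndn (FDR = 9.68e-08) and Mkrn3 (FDR = 0.00795).

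**Figure D1:**
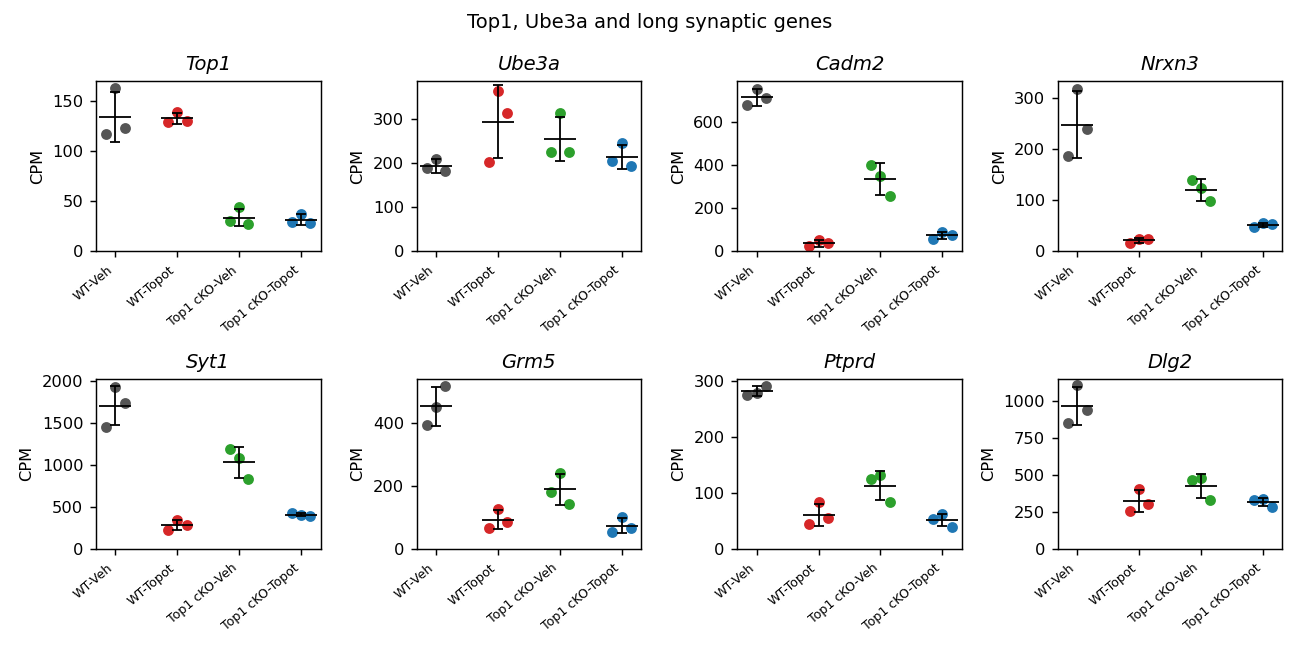
CPM (vertical axis, linear from 0) of Top1, Ube3a and 6 long synaptic genes in the 12 libraries, by group, with replicates 1, 2 and 3 from left to right in each group; horizontal bars are group means and whiskers 1 SD (n = 3). Top1 is low in both CRE groups, at 28.4 to 37.5 CPM in Top1 cKO-Topot libraries, and the 6 long genes are lower in every Top1 cKO-Topot than in every WT-Veh library.

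Over the whole table, the combined treatment lowered 289 genes (1.21%) and raised 113 (0.473%). Of the 13712 genes whose mean over the 6 libraries reached 1 CPM these were 2.11% and 0.824%. With no adjustment, p under 0.05 was reached by 1724 lower and 1493 higher genes. Blocking on the replicate number, 961 were lower (4.02% of all genes, 7.01% of those with at least 1 CPM) and 799 higher (3.34% and 5.83%), and all 402 genes called without the block were called in the same direction with it. The lower genes fell further than the higher genes rose: the median log2 fold change was −1.61 for the lower and 1.22 for the higher genes, and 94 genes fell but 11 rose by over 2 on the log2 scale. Without WT-Veh replicate 3 the numbers became 580 and 321, without Top1 cKO-Topot replicate 2 they became 192 and 38, and without Top1 cKO-Topot replicate 3, 199 genes were higher.

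The lower genes were longer than the table as a whole, and without the block most of them exceeded 100 kb. Lengths were taken from the GENCODE annotation of the same assembly, and 270 of the 289 lower and 109 of the 113 higher genes had one. The median length was 281 kb among the lower, 25.4 kb among the higher and 24.2 kb among all genes with at least 1 CPM, and 173 lower but 13 higher genes exceeded 100 kb. With the block the median was 57.4 kb among the 910 lower genes with a length, of which 367 exceeded 100 kb and 543 did not, and 28.8 kb among the 780 higher ones. Of the 73 genes over 800 kb, 58.9% were lower and 0 were higher, with a median log2 fold change of −1.75. Of the 213 genes between 400 and 800 kb, 31.5% were lower with a median of −0.88, and of the 539 between 200 and 400 kb, 7.61% with a median of −0.30. Between 100 and 200 kb the share lower was 1.84% and the median was 0.00, and below 100 kb no length class had more than 0.966% of its genes lower. With the block the shares lower were 68.5% over 800 kb, 49.3% from 400 to 800 kb, 19.9% from 200 to 400 kb and 8.79% from 100 to 200 kb, and between 3.81% and 5.99% in the classes below 100 kb. Without the block, 97 of the lower genes with a known length were no longer than 100 kb.

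The same classes after either single change, which share the WT-Veh libraries, are given side by side. Over 800 kb the median log2 fold change was −2.56 with the drug, −0.79 with the deletion and −1.75 with both. Between 400 and 800 kb the medians were −1.61, −0.33 and −0.88, and between 200 and 400 kb they were −0.74, −0.09 and −0.30. Topotecan on Top1 cKO cultures thus gave medians between those of the drug and of the deletion in these 3 classes.

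**Figure D2:**
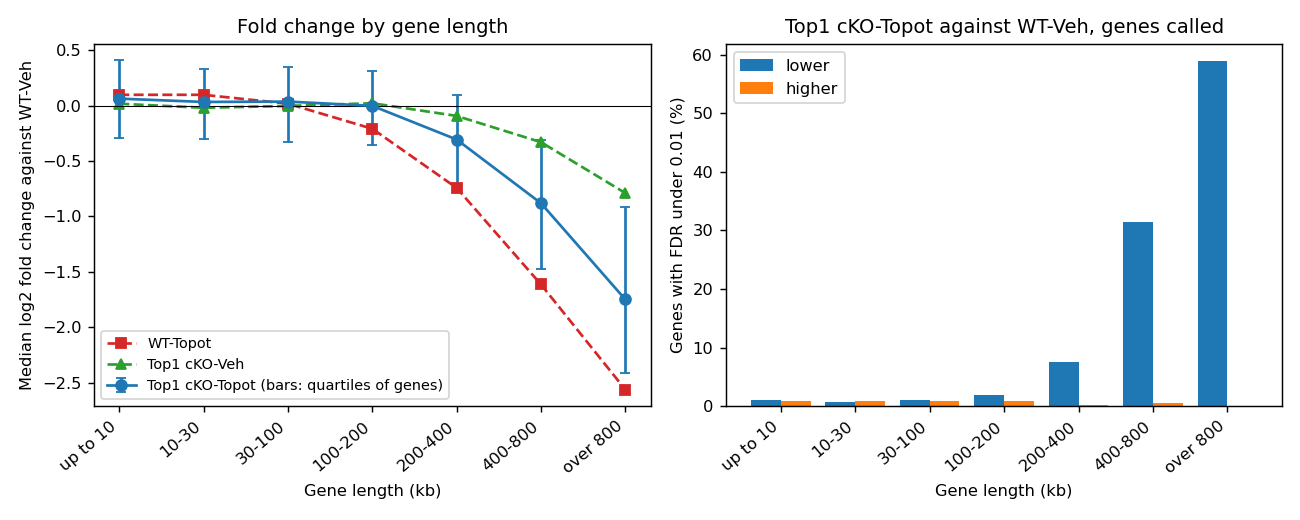
Left, median log2 fold change against WT-Veh (vertical axis) of genes in 7 length classes (horizontal axis, kb) for Top1 cKO-Topot (circles, bars from the lower to the upper quartile of genes), WT-Topot (squares) and Top1 cKO-Veh cells (triangles); right, the percent of genes in each class called lower or higher in Top1 cKO-Topot. The median of the longest class is −1.75 in Top1 cKO-Topot, between −2.56 and −0.79 for the drug and the deletion alone, and 58.9% of that class is lower.

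A single value per library was tested as well: the long gene shift, obtained by subtracting the median log2(CPM + 1) of genes up to 100 kb from that of longer ones. It was 0.68, 0.86 and 0.60 in WT-Veh and 0.43, 0.61 and 0.32 in Top1 cKO-Topot libraries, so 1 Top1 cKO-Topot library reached above the lowest WT-Veh library. The means were 0.71 ± 0.13 (SD, n = 3) and 0.45 ± 0.15 (SD, n = 3), a difference of −0.26 (two-sided exact permutation test, p = 0.2). This test leaves out the pairing, so deviations that same-numbered libraries share count as spread in it. With 3 libraries against 3 the smallest p this test can give is 0.1. In every same-numbered pair the Top1 cKO-Topot library was lower, by 0.25 to 0.28. With the limit at 200 kb the groups did not overlap and the difference was −0.61 (two-sided exact permutation test, p = 0.1).

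The largest falls by the naming rule included 4 genes over 800 kb and 4 short ones. Cadm2, which codes for a synaptic cell adhesion molecule (965 kb), had 681, 756 and 714 CPM in WT-Veh and 55.8, 87.7 and 76.5 CPM in Top1 cKO-Topot libraries (log2 fold change −3.27 ± 0.20, FDR = 8.7e-09). Csmd1, a complement regulator gene (1643 kb), had 62.6, 81.5 and 66.8 against 6.77, 9.30 and 6.12 CPM (log2 fold change −3.20 ± 0.27, FDR = 3.82e-07). Tenm1, a teneurin adhesion gene, had 73.7, 128 and 86.4 against 9.16, 14.6 and 6.99 CPM (log2 fold change −3.18 ± 0.30, FDR = 1.3e-06). Each of these 3 genes was lower in all Top1 cKO-Topot than in all WT-Veh libraries, without overlap. The glypican gene Gpc5 (1432 kb, log2 fold change −3.99), the glycosyltransferase gene Galntl6 (1134 kb, −3.55) and Nkain2, which codes for a protein that interacts with the sodium pump (−3.88), fell likewise, with FDRs of 4.59e-05, 2.11e-05 and 3.39e-08. The short genes in this set were Slc7a3 and Stc2, which are described with the amino acid response, Reep6 (log2 fold change −3.08, FDR = 8.87e-05) and Lcn2. Lcn2, the iron-binding lipocalin gene of reactive glia, had 237, 10 and 7 counts in WT-Veh and 2, 0 and 0 in Top1 cKO-Topot libraries (FDR = 0.00155). Its mean CPM was at least 22.2-fold lower against a floor of 3 counts per library, but 1 WT-Veh library held most of the counts, and without WT-Veh replicate 1 (FDR = 0.0196) or without Top1 cKO-Topot replicate 2 (FDR = 0.0336) it was not called.

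Among the lists, cell adhesion, the largest, had the most lower genes by number, while the share was larger in the amino acid response list (18 of 37). Of 75 adhesion genes in the list, 30 were lower and 0 were higher, and 37 were lower and 4 higher with the block. Leaving out WT-Veh replicate 3 gave 3 higher members. The median log2 fold change of the 74 members with at least 1 CPM was −0.84, against 0.02 for all 13712 genes, and the members' median length was 313 kb against 24.2 kb. Cntnap2, a neurexin superfamily gene (2241 kb), had 10.8, 14.5 and 7.49 CPM in WT-Veh and 0.797, 0.996 and 1.31 CPM, at most 3 counts, in each Top1 cKO-Topot library. Against that floor it was at least 9.36-fold lower (FDR = 0.000479). Nrxn3 codes for a neurexin, a presynaptic receptor that binds neuroligins across the cleft. Nrxn3 (1612 kb) had 187, 318 and 238 CPM in WT-Veh and 47.8, 55.1 and 52.5 CPM in Top1 cKO-Topot libraries (log2 fold change −2.23 ± 0.22, FDR = 1.98e-06). The neuroligin gene Nlgn1 (702 kb) had 153, 186 and 156 against 21.9, 35.2 and 36.3 CPM (log2 fold change −2.38 ± 0.23, FDR = 1.45e-06). In neither gene did the groups overlap. Shorter family members did not pass the test: Nlgn2 (14.7 kb) had a log2 fold change of −0.19 (FDR = 0.852), Nlgn3 (30.1 kb) of 0.25 (FDR = 0.707) and Nrxn2 (125 kb) of 0.15 (FDR = 0.933). Nlgn1 and Nlgn2 were named here after their values had been seen, as were the other family members. The 5 longest genes that were called and averaged 10 CPM or more were Ptprd (2271 kb, log2 fold change −2.41), Dlg2 (1945 kb, −1.58), Csmd1, Nrxn3 and Magi2 (1478 kb, −1.57).

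Of 31 cadherin and protocadherin genes, calcium-dependent adhesion molecules, 6 were lower and 0 higher without the block, and 10 were lower and 6 higher with it, with a median of −0.12. The members that fell most were Cdh12 (−2.96, FDR = 4.79e-05), Pcdh9 (−2.88, FDR = 6.06e-07), Pcdh11x (−2.64, FDR = 2.38e-05) and Cdh13 (−2.43, FDR = 3.81e-06), and all 4 were over 400 kb long. Beyond this list, 14 of the 15 Pcdha symbols were lower, with log2 fold changes from −1.24 to −0.72. These symbols share their last exons, so their counts could not be told apart, and they are best read as 1 uncertain locus. The totals of lower genes still count each symbol singly, as they do the 6 H2-Q symbols, all lower (−3.78 to −2.34). Both families were named after their values had been seen.

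Some glutamate receptor genes fell. Of 26 glutamate receptor genes, 7 were lower and 0 higher (10 and 0 with the block), with a median of −0.91. Grm7 (metabotropic, 922 kb) had 81.6, 170.1 and 111 CPM in WT-Veh and 11.2, 17.6 and 14.9 CPM in Top1 cKO-Topot libraries (log2 fold change −3.02 ± 0.29, FDR = 1.41e-06). Grm5 (532 kb) had 393, 451 and 518 against 53.4, 102 and 67.3 CPM (log2 fold change −2.58 ± 0.23, FDR = 4.89e-07), and the kainate receptor gene Grik2 (689 kb) had 34.5, 46 and 55.9 against 5.58, 13 and 12.7 CPM (log2 fold change −2.09 ± 0.32, FDR = 0.000337). Grm2, at 11.6 kb the short exception among the 4 that fell most, had 74, 40.3 and 65.1 against 14.7, 14.3 and 10.5 CPM (log2 fold change −2.15 ± 0.28, FDR = 5.6e-05). None of the 4 overlapped between the groups. Of 17 GABA receptor genes, 1 was lower without the block, Gabrb1 (−2.17, FDR = 0.000235), and 4 with it, among them Gabra5 (−1.27, FDR with the block = 2.83e-09). Their median was −0.24, and leaving out single libraries gave 1 to 2 lower members.

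Of 32 postsynaptic scaffold genes, 7 were lower and 0 higher (12 and 3 with the block), with a median of −0.29. Gphn, the gephyrin scaffold gene of inhibitory synapses, had 80.5, 97.7 and 80.6 CPM in WT-Veh and 18.3, 25.2 and 25.8 CPM in Top1 cKO-Topot libraries (log2 fold change −1.88 ± 0.23, FDR = 3.57e-05). Dlg2, a scaffold gene of excitatory synapses, had 852, 1109 and 943 against 333, 337 and 286 CPM (log2 fold change −1.58 ± 0.17, FDR = 7.12e-06). These groups did not overlap. Dlgap1 (−1.87, FDR = 9.81e-06) and Frmpd4 (−1.63, FDR = 4.86e-05), which code for partners of the same scaffold, fell as well.

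Among 54 genes of vesicle release the changes went both ways, with 8 lower and 3 higher (13 and 7 with the block) and a median of 0.01. Syt1, the calcium sensor of fast release (513 kb), had 1458, 1925 and 1736 CPM in WT-Veh and 422, 404 and 389 CPM in Top1 cKO-Topot libraries (log2 fold change −2.05 ± 0.17, FDR = 2.6e-07). Vamp1, a vesicle SNARE gene of 29 kb, had 34.8, 82 and 63.4 against 189, 162 and 224 CPM (log2 fold change 1.705 ± 0.25, FDR = 0.000236). Both were free of overlap, in opposite directions. The active zone gene Ppfia2 (−2.37, FDR = 1.09e-05) and Nbea (−2.34, FDR = 3.82e-07), another member of the list, fell. The complexin gene Cplx2 (0.94, FDR = 0.00216) and Slc17a6 (1.17, FDR = 0.0071), a vesicular glutamate transporter gene, rose. Without Top1 cKO-Topot replicate 2 their FDRs were 0.0264 and 0.0274, and only 1 gene of the list was then higher. Without WT-Veh replicate 3, 5 were higher.

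Of 65 potassium channel genes, 9 were lower and 1 higher (14 and 10 with the block), with a median of −0.30. Kcnip4 (−2.70, FDR = 3.81e-06), Kcnh7 (−2.28, FDR = 0.000162), Kcnq5 (−2.21, FDR = 1.8e-06) and Kcnt2 (−2.15, FDR = 0.000571) fell most and were all over 200 kb long. Kcnk9, a leak channel gene of 34.2 kb, had 20.2, 14.5 and 21.3 CPM in WT-Veh and 50.2, 63.8 and 53.8 CPM in Top1 cKO-Topot libraries and was the 1 member that was higher (log2 fold change 1.61 ± 0.25, FDR = 0.000388). Its groups did not overlap. Leaving out single libraries gave 1 to 7 higher members, the most without Top1 cKO-Topot replicate 3. Of 27 sodium and calcium channel genes, 3 were lower and 0 higher (5 and 5 with the block), with a median of −0.01. They were Cacna2d3 (−1.58, FDR = 0.00268), Cacna2d1 (−1.47, FDR = 4.31e-05) and Cacna1a (−1.26, FDR = 0.00281). Cacna2d3 and Cacna1a were not called without Top1 cKO-Topot replicate 2 (FDR = 0.0317 and 0.0132) or without WT-Veh replicate 2 (FDR = 0.025 and 0.0236). In both cases 1 gene of the list stayed lower, and without WT-Veh replicate 3, 3 genes were higher.

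**Figure D3:**
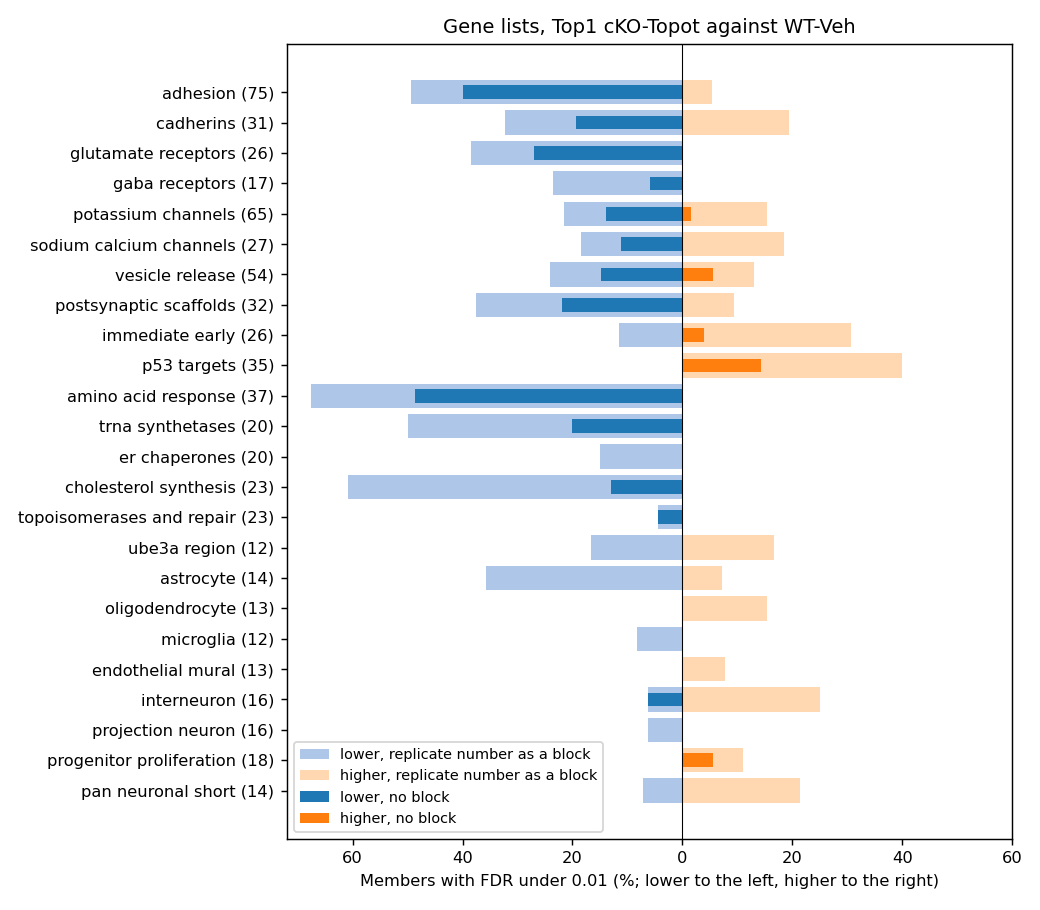
Percent of each gene list's members in the table (number in brackets) called lower (left) or higher (right) in Top1 cKO-Topot against WT-Veh cells, without the replicate block (dark) and with it (light). The amino acid response, adhesion and glutamate receptor lists have 18 of 37, 30 of 75 and 7 of 26 members lower and 0 higher without the block, and the p53 target list has 5 of 35 higher and 0 lower.

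Many short genes of amino acid supply fell. The amino acid response list holds targets of ATF4, the transcription factor that cells use when amino acids are scarce or proteins misfold: importers of amino acids, enzymes that make serine, glycine, asparagine and proline, and folate enzymes of mitochondria. Of its 37 genes, 18 were lower and 0 higher (25 and 0 with the block). The median was −1.41 against 0.02 for all genes, 36 members had a negative fold change, and the median length was 16.9 kb. Slc7a3, a transporter of cationic amino acids, had 61.1, 61.8 and 85.8 CPM in WT-Veh and 3.58, 2.66 and 6.12 CPM in Top1 cKO-Topot libraries (log2 fold change −4.07 ± 0.32, FDR = 2.11e-07). Stc2, a stanniocalcin gene of the stress response, had 38, 20.2 and 28.8 against 3.58, 2.66 and 1.75 CPM (log2 fold change −3.40 ± 0.39, FDR = 1.48e-05). Mthfd2, a mitochondrial folate enzyme gene, had 34.8, 38.6 and 37.4 against 6.77, 5.31 and 6.56 CPM (log2 fold change −2.55 ± 0.30, FDR = 2.09e-05). In none of the 3 did the groups overlap. Shmt2, which makes glycine from serine in mitochondria, had 65.5, 59.6 and 51.3 against 11.6, 7.97 and 10.5 CPM (log2 fold change −2.54 ± 0.27, FDR = 4.74e-06). Asns, the asparagine synthetase gene, had 269, 281 and 274 against 129, 73.1 and 102 CPM (log2 fold change −1.41 ± 0.21, FDR = 0.000192), and Chac1, which codes for a glutathione-degrading enzyme, had 59.1, 61.8 and 65.1 against 13.1, 7.31 and 16.6 CPM (log2 fold change −2.32 ± 0.28, FDR = 3.14e-05). Atf4 itself had 451, 511 and 577 against 358, 255 and 363 CPM, without overlap, as were 26.5% of genes with at least 1 CPM, and was called only with the block (log2 fold change −0.63 ± 0.18, FDR = 0.0599, FDR with the block = 0.000146). The list was drawn up with genes in view that the study had found lower after the deletion in these libraries, so its direction is not independent evidence.

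After the deletion alone the median log2 fold change of this list was −1.27 and after topotecan alone −1.12, both against the same WT-Veh libraries, with 7 and 14 members lower. Of all genes 0.126% were lower and 0.046% higher after the deletion alone, and 2.04% lower and 0.682% higher after topotecan alone. Directly against Top1 cKO-Veh cells the median was −0.07 and 0 members were called in either direction (1 was higher with the block), at 2 called genes in all. The interaction contrast, described below, had a median of 1.16 and was positive in 3 members, so for these 3 the sum of the 2 single changes was larger than the combined fall. Of 20 tRNA synthetase genes, whose products load amino acids onto tRNA, 4 were lower and 0 higher (10 and 0 with the block), with a median of −0.59. Lars, for leucine, had 76.4, 71.4 and 43.2 CPM in WT-Veh and 19.9, 15.3 and 6.99 CPM in Top1 cKO-Topot libraries (log2 fold change −2.15 ± 0.32, FDR = 0.00021). Yars, for tyrosine, had 203, 203 and 155 against 77.7, 64.4 and 79.6 CPM (log2 fold change −1.32 ± 0.20, FDR = 0.000236). These 2 did not overlap between groups. Aars (−1.23, FDR = 0.000793) and Gars (−1.01, FDR = 0.00294) were not called without Top1 cKO-Topot replicate 2 (FDR = 0.0111 and 0.0291), when 2 genes of the list were lower, and Gars was not called without WT-Veh replicate 2 (FDR = 0.0144). Without WT-Veh replicate 3, 8 were lower.

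The ATF4 element of amino acid response promoters has the core TGATGNAA. It was searched on both strands of the RefSeq promoter windows of the GRCm38.p6 assembly, 250 bases before to 50 after each start, which is a later build than that of the counts. Of 27025 genes 4.51% held it, of the 30 amino acid response genes with an entry 26.7%, and of 13 tRNA synthetase genes 38.5%. The amino acid response list was chosen to hold ATF4 targets, so its higher share is not a result of these libraries. Of the members that were lower, 3 of 14 and 3 of 3 held it, so most lower members of the first list did not have these letters in this window. The stretches upstream of the start around 4 of these matches are printed in the direction of the gene with the match in capitals. These are the matches in lower members that ended before the start, and matches reaching past the start are not printed. A match is a description of the letters and not a proven site. In Chac1, Aars and Gars the core was on the opposite strand, and it began 193, 112 and 30 bases before the start, and in Asns it was on the gene's strand, 23 bases before. The stretches are at chr2:119351019-119351086 (plus strand) for Chac1, chr6:7693210-7693262 (minus strand) for Asns, chr8:111033700-111033767 (plus strand) for Aars and chr6:55037941-55038000 (plus strand) for Gars.
Chac1 promoter stretch: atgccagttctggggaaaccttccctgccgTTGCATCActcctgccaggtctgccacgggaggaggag
Asns promoter stretch: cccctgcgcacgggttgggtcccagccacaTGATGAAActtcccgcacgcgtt
Aars promoter stretch: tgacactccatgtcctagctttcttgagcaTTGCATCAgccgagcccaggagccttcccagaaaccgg
Gars promoter stretch: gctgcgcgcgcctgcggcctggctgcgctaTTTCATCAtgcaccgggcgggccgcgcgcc

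Genes of cholesterol synthesis and uptake, which SREBP factors switch on when sterols are low, leaned the same way. Of 23 in the table, 3 were lower and 0 higher without the block and 14 were lower with it, with a median of −0.80 and a negative fold change in 21 of 22 members with at least 1 CPM. The 3 were Mvd (−2.12, FDR = 0.00772), Nsdhl (−2.04, FDR = 0.000793) and Pmvk (−1.18, FDR = 0.00641). This count rested on single libraries: leaving out Top1 cKO-Topot replicate 2 gave 0, replicate 3 of that group gave 12, and replicates 1 and 2 of WT-Veh gave 8 and 1. Without Top1 cKO-Topot replicate 2 the FDRs of Mvd, Nsdhl and Pmvk were 0.0384, 0.0129 and 0.0567. Astrocytes are a main site of sterol synthesis in brain cultures, and the summed level of 14 astrocyte markers, given below, was also lower in each Top1 cKO-Topot library than in the WT-Veh library of the same number. After the deletion alone the median log2 fold change was −0.67 for the cholesterol list and 0.05 for the astrocyte list. After topotecan alone these medians were −0.91 and −0.52, both against the same WT-Veh libraries. The part of astrocytes in the result was not tested. Of 20 chaperone and other genes of the endoplasmic reticulum stress response, 0 were called (edgeR quasi-likelihood test, 3 lower with the block, among them Atf6 at FDR = 0.000643 and Herpud1 at FDR = 0.00151), with a median of −0.15, and without WT-Veh replicate 3, 2 were lower.

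Some genes that p53 activates after DNA damage rose. Of 35 targets in the table, 5 were higher and 0 lower (14 and 0 with the block), and the median of the 34 with at least 1 CPM was 0.52. Gtse1, a regulator of the cell cycle and of p53, had 2.63, 2.63 and 2.30 CPM in WT-Veh and 25.5, 14.9 and 21 CPM in Top1 cKO-Topot libraries (log2 fold change 3.00 ± 0.40, FDR = 7.6e-05). Trp53inp1, which promotes p53 activity, had 72.9, 62.2 and 72.6 against 209.9, 169.7 and 196 CPM (log2 fold change 1.49 ± 0.19, FDR = 4.86e-05). Btg2, an antiproliferative gene that is also an immediate early gene, had 35.4, 38.1 and 29.9 against 87.6, 70.4 and 124 CPM (log2 fold change 1.46 ± 0.24, FDR = 0.000712). These 3 did not overlap between groups. Phlda3, an inhibitor of AKT signalling, had 95.4, 44.3 and 49.5 against 219, 126 and 174 CPM (log2 fold change 1.46 ± 0.26, FDR = 0.00193), and was not called without WT-Veh replicate 2 (FDR = 0.0141). Cdkn1a, a cell cycle inhibitor gene, had 251, 301 and 131 against 659, 346 and 510.2 CPM. It missed the threshold without the block (log2 fold change 1.17 ± 0.26, FDR = 0.0109) and passed it with the block (FDR = 1.53e-06) and with DESeq2 (FDR = 0.00244). Mdm2, the ubiquitin ligase gene that p53 induces against itself, had a log2 fold change of 0.73 (FDR = 0.0678, with the block 0.00132). Both were named after their values had been seen. Part of this list was prompted by genes that the study found higher in these same Top1 cKO-Topot libraries, so its direction is not independent evidence. The number of higher targets was 9 without Top1 cKO-Topot replicate 3 or without WT-Veh replicate 1, and 8 without WT-Veh replicate 3.

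After the deletion alone the median of the p53 list was 0.22 with 0 members higher, and after topotecan alone it was 0.33 with 3 higher and 1 lower, both against the same WT-Veh libraries. In the direct comparison with deletion alone the median was 0.41, and 0 members were called without the block but 13 were higher with it. The Gtse1 level was 5.36, 5.15 and 1.71 CPM after topotecan alone and 7.43, 6.18 and 6.51 CPM after deletion alone, all below the lowest Top1 cKO-Topot library. The interaction contrast of Gtse1 was 0.89 ± 0.59 (SE, FDR = 0.863), so the combined level did not pass the test for being more than the sum of both changes.

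**Figure D4:**
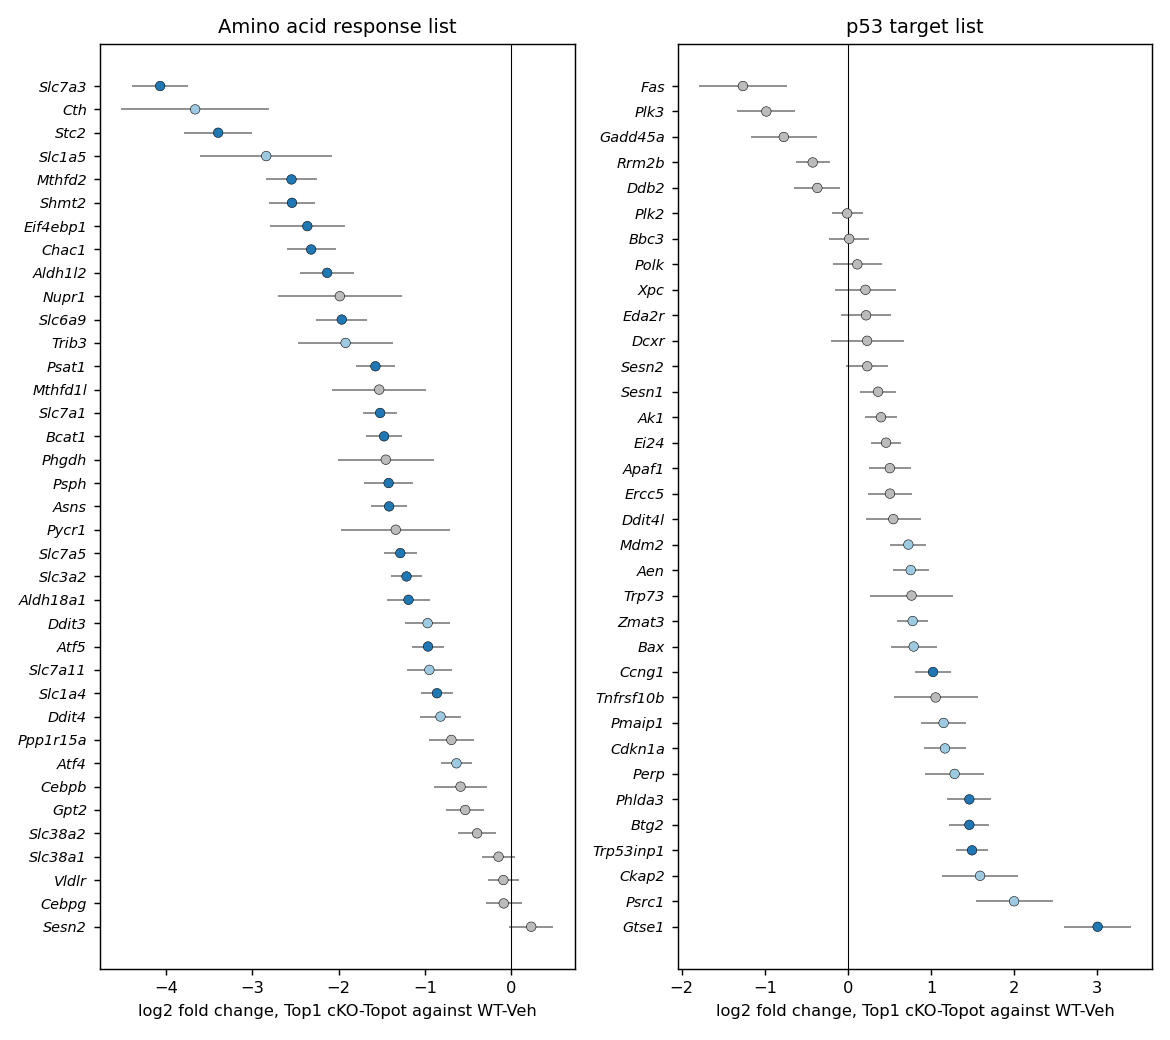
Log2 fold change (horizontal axis, bars 1 SE) of each member that reached a mean of 1 CPM, for the amino acid response list (left) and the p53 target list (right). Dark points passed FDR under 0.01 without the block, light blue points only with it, and grey points in neither; 36 of 37 amino acid response genes lie below 0, down to −4.07 for Slc7a3, and Gtse1 at 3.00 is the highest p53 target.

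The genes that rose most by the naming rule were of short or middle length. Grp, the gastrin-releasing peptide gene, had 7.90, 1.75 and 8.06 CPM in WT-Veh and 48.2, 75.7 and 51.6 CPM in Top1 cKO-Topot libraries (log2 fold change 3.31 ± 0.37, FDR = 8.75e-06). Palmd, a palmdelphin gene, had 5.27, 9.20 and 8.06 against 35.8, 55.5 and 32.8 CPM (log2 fold change 2.51 ± 0.33, FDR = 5.48e-05). The formin gene Inf2, which acts on actin filaments, had 38, 50.8 and 51.8 against 228, 113 and 234 CPM (log2 fold change 2.06 ± 0.26, FDR = 3.57e-05). In all 3 each Top1 cKO-Topot library was above each WT-Veh library. Rab26, a small GTPase gene of secretory vesicles, rose from 5.85, 6.57 and 6.91 to 24.3, 23.9 and 27.1 CPM (log2 fold change 1.99 ± 0.32, FDR = 0.000576). Fam13b (2.67, FDR = 0.000107), C130083M11Rik (2.599, FDR = 0.000112), Fam212b (2.04, FDR = 8.18e-06), Pkd2l2 (2.18, FDR = 0.00431) and A330023F24Rik (2.06, FDR = 0.00923) completed the set with Gtse1. Pkd2l2 lies next to Fam13b, and the counts of neighbouring genes could share reads, as the use of strand is not stated. Pkd2l2 and A330023F24Rik were not called without Top1 cKO-Topot replicate 2 (FDR = 0.0849 and 0.04) or without WT-Veh replicate 2 (FDR = 0.0242 and 0.0223), nor was A330023F24Rik without WT-Veh replicate 1 (FDR = 0.0119).

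Many activity-regulated genes were higher than after topotecan alone. Immediate early genes are switched on within minutes of calcium entry and report recent firing. Of 26 in the list, 0 were lower and 1, Btg2, was higher in Top1 cKO-Topot than in WT-Veh cells (edgeR quasi-likelihood test, 3 and 8 with the block), with a median of −0.01, and without WT-Veh replicate 3 they were 3 and 3. After topotecan alone, against the same WT-Veh libraries, 16 were lower and 0 higher, against 2.04% and 0.682% of all genes, with a median of −1.55. Directly against WT-Topot cells, 18 were higher and 0 lower in Top1 cKO-Topot cells (22 and 0 with the block), with a median of 1.74. Npas4, a neuronal activity factor, had 23.7, 67.9 and 29.4 CPM in WT-Veh libraries, 2.68, 1.14 and 6.85 after topotecan alone, 12.9, 32.1 and 16 after deletion alone and 37, 21.3 and 31.9 after both. The WT-Topot libraries lay below all others. Nr4a1, an orphan nuclear receptor gene, had 108, 108 and 54.1, 8.04, 5.15 and 13.7, 69.6, 107 and 61.1 and 172, 103 and 140.3 CPM in the same order of groups. Bdnf, the neurotrophin gene, had 195, 453 and 199, 31.2, 30.6 and 18.8, 158, 145 and 79.2 and 180.0, 129 and 177 CPM. For both, too, the 3 lowest libraries were those of WT-Topot. Against WT-Veh the combined change was −0.40 for Npas4 (FDR = 0.771), 0.63 for Nr4a1 (FDR = 0.209, with the block 0.00746) and −0.79 for Bdnf (FDR = 0.118, with the block 0.00959).

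**Figure D5:**
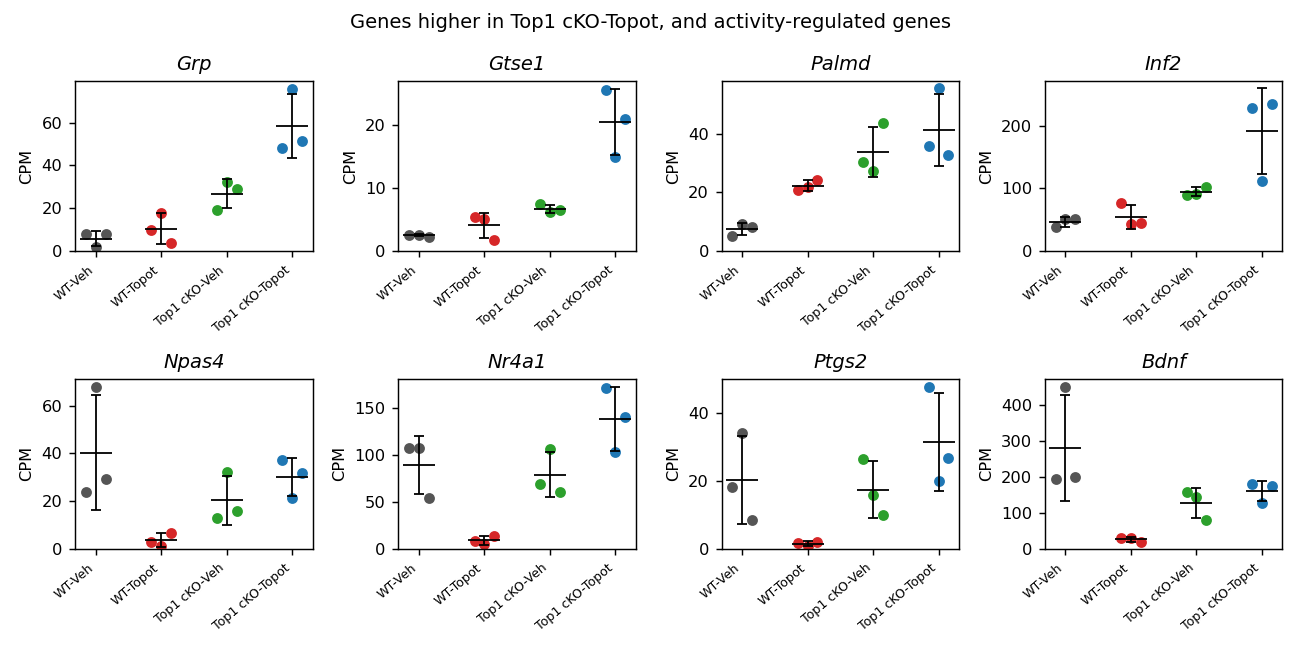
CPM (vertical axis, linear from 0) of 4 genes that were higher in Top1 cKO-Topot cells and of 4 activity-regulated genes in the 12 libraries, with replicates 1, 2 and 3 from left to right in each group; horizontal bars are group means and whiskers 1 SD (n = 3). Npas4, Nr4a1, Ptgs2 and Bdnf are lowest in WT-Topot, where Npas4 was at 2.68, 1.14 and 6.85 CPM.

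Whether topotecan still acted on Top1 cKO cultures was asked directly against Top1 cKO-Veh. Both groups kept some Top1 RNA, and the paper holds that residual TOP1 most likely came from neurons without virus or from non-neuronal cells. Drug action on deleted cells and on cells that kept TOP1 thus cannot be told apart here. Without the block 2 genes were lower (0.00837%) and 0 higher (627 and 404 at an unadjusted p of 0.05, edgeR quasi-likelihood test). The 2 were Cadm2, with 404, 352 and 256 CPM in Top1 cKO-Veh libraries (log2 fold change −2.19 ± 0.21, FDR = 0.000347), and Syt1, with 1194, 1077 and 832 CPM (−1.34 ± 0.16, FDR = 0.00324). In both every Top1 cKO-Topot library, as listed above, was below every Top1 cKO-Veh library. The block raised these numbers to 415 lower (1.74%) and 205 higher genes (0.858%). DESeq2 called 44 lower and 9 higher, and edgeR's exact test 35 and 5. The counts became 117 and 15 when Top1 cKO-Veh replicate 3 was left out, and 33 and 10 when replicate 1 of that group was. Leaving out Top1 cKO-Topot replicate 2 gave 1 lower gene, and leaving out its replicate 3 gave 4 lower and 2 higher genes. With the block 27 of 75 adhesion genes and 10 of 26 glutamate receptor genes were lower, and 13 of 35 p53 targets and 9 of 26 immediate early genes were higher. The median log2 fold change was −0.92 for genes over 800 kb and −0.45 for those between 400 and 800 kb.

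Against topotecan alone, the question was what the loss of TOP1 changed in drug-treated cells. Relative to WT-Topot cells, 246 genes (1.03%) fell and 350 (1.46%) rose in Top1 cKO-Topot cells (976 and 1100 with the block). Scaled by library totals alone these were 343 and 317, so which direction held more genes depended on the scaling. Genes over 800 kb had a median of 0.58 and those between 400 and 800 kb of 0.71. Of 75 adhesion genes 11 were higher and 3 lower (21 and 4 with the block), and of 65 potassium channel genes 11 were higher and 0 lower (22 and 5 with the block). Among called genes averaging 10 CPM or more, the 5 with the largest rise were Ptgs2 (4.35, FDR = 9.3e-07), Nr4a1 (3.99, FDR = 8.06e-09), Npas4 (3.15, FDR = 3.88e-05), Nptx2 (3.23, FDR = 5.19e-07) and Arc (2.80, FDR = 4.85e-06), all induced by neuronal activity. The 5 with the largest fall were Slc7a3 (−2.57, FDR = 0.000162), Gpr21 (−2.47, FDR = 0.00149), Gstm4 (−2.41, FDR = 0.000226), Gpr52 (−2.35, FDR = 5.7e-05) and Ccdc74a (−2.35, FDR = 6.11e-05). The number lower ranged from 157 to 348 and the number higher from 232 to 543 when single libraries were left out.

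Deletion and drug were then tested for additivity in 1 fit of all 12 libraries. The interaction is the effect of topotecan in Top1 cKO cells minus that in WT cells on the log2 scale, and it is 0 where the combined change equals the sum of both single ones. It was positive for 95 genes (0.398%) and negative for 9 (0.0377%), and with the block for 583 and 365. Among the adhesion genes 10 were positive and 0 negative, with a median of 0.80 against −0.01 for all genes with at least 1 CPM. For genes over 800 kb the median was 1.42. Nrxn3 had 15.4, 23.8 and 24 CPM after topotecan alone and 140.0, 123 and 97.7 CPM after deletion alone, beside the values given above, so on the log2 scale the fall with topotecan was larger in WT than in Top1 cKO cells (interaction 2.34 ± 0.31, FDR = 0.000552). Nell1, a secreted glycoprotein gene of 890.4 kb, had 39.2, 52.2 and 40.9 CPM in WT-Veh libraries, 1.01, 1.14 and 0.856 after the drug, 14.9, 23.8 and 19 after the deletion and 6.37, 10.3 and 14.4 after both (interaction 4.46 ± 0.51, FDR = 0.000133). The lowest libraries were again those of WT-Topot, where these levels rest on few counts, so the size of this interaction is uncertain. Of the 26 immediate early genes 9 were positive and 0 negative. Wdr6, Syt17, Ccdc74a, Cdo1 and Cdhr1 were among the 9 negative genes. Wdr6 had 349.6, 332 and 304 CPM in WT-Veh libraries, 1028, 1099 and 739 with topotecan, 507, 631 and 548 with the deletion and 439, 584 and 331 with both. In WT cells every topotecan library was above every vehicle library, while in Top1 cKO cultures the 2 groups overlapped (interaction −1.86 ± 0.27, FDR = 0.00107).

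Markers of the cell types that such cultures hold were set beside these changes. Of 14 short genes that all neurons express, 0 were called (edgeR quasi-likelihood test, 1 lower and 3 higher with the block), with a median of 0.23, and their summed level was 9522 to 12390.5 CPM in WT-Veh and 11428 to 13960.2 CPM in Top1 cKO-Topot libraries. Thy1, a neuronal surface gene, had a log2 fold change of 0.60 (FDR = 0.0381, with the block 1.51e-05). Of 16 projection neuron markers 0 were called (1 lower with the block), with sums of 2996 to 3196 and 2658 to 3102 CPM. Of 16 interneuron markers 1 was lower, Reln (460.3 kb, −1.93, FDR = 0.00152, not called without WT-Veh replicate 2 at FDR = 0.0136), and 4, among them Cck (FDR = 3.29e-06), were higher with the block. Their sums were 1239 to 2703 and 1705 to 2459 CPM. With WT-Veh replicate 3 left out, 2 of the short neuronal genes and 2 of the interneuron markers were higher.

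Glial markers moved with the groups in part. Of 14 astrocyte markers 0 were called (5 lower and 1 higher with the block), with a median of −0.45. Their summed level was 5848, 4235 and 2801 CPM in WT-Veh and 3985, 3199 and 2014 CPM in Top1 cKO-Topot libraries, so the groups overlapped but each pair of the same number fell. Gfap, the intermediate filament gene of astrocytes, had 1151, 364 and 481 against 425, 184 and 117 CPM (log2 fold change −1.44 ± 0.37, FDR = 0.0346, with the block FDR = 6.21e-11). WT-Veh replicate 1 held the most Gfap and also the most Lcn2. Without WT-Veh replicate 3, 6 astrocyte markers were lower, and without Top1 cKO-Topot replicate 1, 5 were. Of 13 oligodendrocyte lineage markers 0 were called (2 higher with the block, among them Olig1 at FDR = 3.32e-10), with sums of 127 to 181 and 175 to 331 CPM, and 3 and 2 of them had no count in any library of the group. Of 12 microglia markers 0 were called (1 lower with the block, C1qb, at FDR = 0.00848), with sums of 10.4 to 29.0 and 3.50 to 10.96 CPM. Of 13 endothelial and mural markers 0 were called (1 higher with the block, Rgs5, at FDR = 0.00152), with sums of 20.6 to 33.1 and 23.2 to 48.6 CPM. Of 18 progenitor and proliferation markers 1 was higher, Nes, with 55, 48.2 and 32.3 against 174, 200.3 and 84.8 CPM (log2 fold change 1.77 ± 0.27, FDR = 0.000363), and 2 with the block, Nes and Vim (FDR = 2.37e-09). The sums of this list were 578, 342 and 248 CPM in WT-Veh and 998, 742 and 504 CPM in Top1 cKO-Topot libraries, higher in each same-numbered pair although the groups overlapped. The median log2 fold change of its 12 members with at least 1 CPM was only 0.11. Its sums were 1003, 603 and 662 CPM after topotecan alone and 654, 375 and 309 CPM after the deletion alone. Nes was not called without Top1 cKO-Topot replicate 2 (FDR = 0.0102). The part of these cells in the neuronal results was not tested, and CRE expression was limited to cells with an active CaMKIIα promoter, while topotecan was added to the whole culture.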

How the data were processed

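Polyadenylated RNA of 12 mouse cortical cultures was sequenced as 50-base pairs. The authors ran TagDust and then TopHat at its defaults against mm9, discarded rRNA reads and deposited raw counts over RefSeq exons per gene symbol. The counter, its use of strand, the RefSeq release and the versions are not given in the sources used here, so overlapping genes and near-identical copies may share counts.

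The labels gave each library's group and replicate number. From the deposited counts, CPM and fits were computed with edgeR 4.0.16 (TMM, glmQLFit and glmQLFTest, no filter) in R 4.3.3, on the 6 libraries of each comparison and on all 12 for the interaction, with Benjamini-Hochberg adjustment over 23893 genes and an FDR threshold of 0.01. SE is the fold change divided by the root of F. Same-numbered libraries of the 2 groups correlated in their deviations (0.261 to 0.403, different numbers −0.314 to −0.0494). The numbers were therefore taken as pairs from the labels and these values, although no source says what same-numbered cultures share. No library repeated another. Gene lengths came from GENCODE vM1 on NCBIM37 (21013 symbols matched directly, 1046 by synonym). The fit was tested on simulated data with a fixed dispersion and a fixed size of change, neither matched to these libraries. With a simulated replicate effect, 98 of 200 changed genes were recovered without and 193 with the block, and 0 false calls were made. With no such effect, 187 were recovered without and 188 with the block. The gain thus came from the simulated effect and says nothing on its size in these libraries. Alternatives were the block, filterByExpr, RLE size factors, library totals, DESeq2 1.42.0, edgeR's exact test, a fit of all 12 libraries and leaving out each library.

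Genes were named by a rule: Top1 and Ube3a; the 10 largest falls and rises called without and with the block, averaging 10 CPM or more and without overlap; up to 4 called members of each of 24 lists, or the 2 with the smallest p where fewer than 2 were called; the 5 longest called genes; and the 5 largest changes each way in the other comparisons. The comparison, the lists and the rule were chosen with earlier results of these data known. Of the listed symbols, 4 were not matched. Intervals come from the standard errors of the fit, which include the spread between libraries as well as counting error. Floors reflect the count limit only.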

Additional observations from a re-analysis of the deposited data

Results flagged for a closer look

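The effect of topotecan differed between Top1 cKO and WT cells, by the interaction test over 12 libraries, for 104 genes (edgeR quasi-likelihood test, FDR under 0.01), against 948 with the replicate number as a block, 64 after filterByExpr and 357 with DESeq2. Among the named genes it was positive for Ptgs2, the prostaglandin synthase gene induced by activity (4.58 ± 0.70, FDR = 0.00175), Nell1 (4.46, FDR = 0.000133), Nr4a1 (4.17, FDR = 9.83e-05), Npas4 (4.11, FDR = 0.00292), Bdnf (3.72, FDR = 0.000133), Nrxn3 (2.34, FDR = 0.000552) and Cadm2 (2.05, FDR = 0.00369). It was negative for Ccdc74a (−2.83, FDR = 0.00524), Syt17 (−2.55, FDR = 0.00107), Cdhr1 (−2.01, FDR = 0.00634), Cdo1 (−1.90, FDR = 0.00462) and Wdr6 (−1.86, FDR = 0.00107). Ptgs2 had 18.1, 34.2 and 8.64 CPM in WT-Veh libraries, 1.68, 0.859 and 2.14 after topotecan, 26.6, 15.8 and 10.02 after deletion and 47.8, 19.9 and 26.7 after both. In the WT-Topot libraries 3 counts correspond to 1.01, 0.859 and 1.28 CPM. The sizes of the Ptgs2 and Nell1 interactions thus rest on few reads there and are uncertain. Npas4 was also low in these libraries, so the same limit holds for the size of its interaction. Ccdc74a had 7.02, 5.26 and 6.34, 28.5, 25.8 and 27, 9.39, 11 and 5.01 and 3.98, 7.64 and 3.93 CPM in the same order, so its rise was seen in WT-Topot cells only among these libraries. Groups of 3 libraries were not tested for single outlying libraries.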

How the results depend on the processing

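Every named gene that was called kept its direction under each alternative run. With the replicate number as a block, the genes lower and higher were 961 and 799 against WT-Veh, 415 and 205 against Top1 cKO-Veh, and 976 and 1100 against WT-Topot, and 948 genes had an interaction. With filterByExpr and the block they were 757 and 466, 125 and 28, and 784 and 1051. After filterByExpr alone, which tests 11486 genes in place of 23893 against WT-Veh, 44 were higher than in WT-Veh, 0 were lower than in Top1 cKO-Veh, 134 were lower than in WT-Topot and 64 had an interaction. DESeq2 called 205 higher against WT-Veh, 44 lower and 9 higher against Top1 cKO-Veh, and 357 interactions. The exact test called 35 lower and 5 higher against Top1 cKO-Veh, and the fit of all 12 libraries 7 lower there and 146 lower against WT-Topot. Leaving out single libraries gave 192 to 580 lower and 38 to 321 higher genes against WT-Veh, 1 to 117 and 0 to 15 against Top1 cKO-Veh, 157 to 348 and 232 to 543 against WT-Topot, 51 to 140 interactions and a long gene shift of −0.34 to −0.19. The shift was −0.61 with a limit of 200 kb, and its mean over same-numbered pairs was −0.26, equal to the unpaired value, with a smallest possible sign-flip p of 0.25. Of 85 named genes, 63 were called. Besides the 16 that the block added, 10 lost their call after filterByExpr, 11 without Top1 cKO-Topot replicate 2 and 9 without WT-Veh replicate 2. The causes of these differences were not tested. With about 1 CPM for 3 counts, genes near that level rest on few reads.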
